A study of Mus musculus with 16 samples.

Results

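The 6 mature miRNAs described here are both arms of the miR-147, miR-187 and miR-9 hairpins (mmu-miR-147-3p, mmu-miR-147-5p, mmu-miR-187-3p, mmu-miR-187-5p, mmu-miR-9-5p and mmu-miR-9-3p, written below without the species prefix), taken by name from the 1372 mouse miRNA names used from a table of small RNA counts. All 6 passed the filter on low counts, among 568 names that did. The cells were cultured bone marrow dendritic cells of male C57BL/6 mice labelled WT (wild type), with no transgene named, in 4 groups of 4 libraries. The mice were 8 weeks old per the labels, except mouse 4, which is labelled as 7 weeks old. Quercetin is a plant flavonol, and LPS (lipopolysaccharide) is a bacterial cell wall component sensed by Toll-like receptor 4 (TLR4). The quercetin plus LPS group received 25 µM quercetin on days 5 and 7 and 1 µg/mL LPS for 6 h on day 8. The quercetin group received the same quercetin without LPS, the LPS group the same LPS without quercetin, and the control group neither; the labels name no vehicle. In all groups red cells had been lysed with ACK buffer at the start of the culture.

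A miRNA hairpin is cut into a 5p and a 3p arm, of which usually one is loaded into Argonaute and represses mRNAs that match its seed, bases 2 to 8 from the 5′ end. miR-147 is induced by Toll-like receptor ligands in mouse macrophages and dampens their cytokine output. In human monocytes miR-187 is induced by interleukin 10 during LPS stimulation and represses inflammatory cytokine transcripts. In human monocytes and neutrophils miR-9 is induced by LPS and targets NFKB1, a subunit of NF-κB, and in the nervous system it is an abundant miRNA of neural progenitors and neurons.

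RefSeq's table for GRCm38.p6 matched a mature sequence to 3 of the 6 names, and none to miR-147-3p, miR-187-3p or miR-187-5p. They are shown because the arms and the number of loci bear on what each count measures; capitals mark the seed.
miR-147-5p: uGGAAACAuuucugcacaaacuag
miR-9-5p: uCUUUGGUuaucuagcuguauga
miR-9-3p: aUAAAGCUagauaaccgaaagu
Among the 1160 names of the table with a mature sequence there, none shared bases 2 to 7 with miR-9-5p or miR-9-3p. miR-8107 shared those bases (GGAAAC) with miR-147-5p, and none shared bases 2 to 8 with it.

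The miR-147 hairpin Mir147 lies on the plus strand at chr2:122640803-122640881 (GRCm38.p6), over an exon of the protein-coding gene AA467197. miR-9 comes from 3 hairpins, all on plus strands of the same build. Mir9-1 lies at chr3:88215598-88215686 in an intron of the long noncoding RNA Gm3764. Mir9-2 lies at chr13:83738814-83738885 over an exon of the long noncoding RNA C130071C03Rik. Mir9-3 lies at chr7:79505264-79505353 in an intron of its host transcript Mir9-3hg. The 3 hairpins are printed to show that they differ outside the arms, given here in capitals.
Mir9-1: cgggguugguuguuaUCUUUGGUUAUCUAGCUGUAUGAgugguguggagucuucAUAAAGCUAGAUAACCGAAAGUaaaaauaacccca
Mir9-2: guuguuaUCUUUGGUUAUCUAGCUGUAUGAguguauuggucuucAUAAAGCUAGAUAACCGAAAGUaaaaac
Mir9-3: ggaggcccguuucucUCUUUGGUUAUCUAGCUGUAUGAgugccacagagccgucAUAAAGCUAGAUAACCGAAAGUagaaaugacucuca
Both arms were identical across the 3 hairpins, so counts of miR-9-5p and miR-9-3p cannot be assigned to a locus.

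Libraries held from 6454535 counts (quercetin plus LPS replicate 3) to 13943904 counts (LPS replicate 2), and between 823 and 997 names were detected in each. Depth differed with quercetin: libraries with it held 6454535 to 9035375 counts and those without it 8660267 to 13943904. Levels are CPM, each count set against its library's total after TMM scaling, and fold changes are log2 values of edgeR's quasi-likelihood test with Benjamini-Hochberg adjustment over 568 miRNAs, with a threshold of 0.05. On the second principal component (22.0% of variance), the highest library of each group was quercetin plus LPS 4, quercetin 4, LPS 4 and control 3, called below the 4 libraries that stand apart. Quercetin 4 (score -2.64, against -12.4 to -10.3 in the other quercetin libraries) did so least. Quercetin plus LPS 1 (6.99) also lay above replicates 2 (-8.77) and 3 (-11.4) of its group, and results were computed without it as well. Blood and myeloid miRNAs were present in every group, with miR-142a-5p at 24601 ± 4749, 20235 ± 4668, 26657 ± 6644 and 25387 ± 9482 CPM in quercetin plus LPS, quercetin, LPS and control cells (SD, n = 4 each). No miRNA in that list separates dendritic cells from other myeloid cells. All 5 erythroid markers were found, and their summed level was 1268 to 3041 CPM with quercetin plus LPS and 2585 to 6649 CPM with quercetin, against 443 to 1409 CPM with LPS and 398 to 893 CPM in controls. Of these 5, 4 were higher at the threshold in each quercetin comparison, where 6.87% (quercetin against control) and 8.63% (quercetin plus LPS against LPS) of the 568 tested were higher. Of 12 stromal, endothelial and epithelial markers 3 were higher in quercetin plus LPS against LPS (summed level 344 to 4671 against 210.0 to 311 CPM), and none passed in quercetin against control (295 to 1431 against 291 to 629 CPM). In that first comparison 8.63% of all 568 tested were higher. Without quercetin plus LPS 2, 1 of the 12 was higher, where 57 of 587 tested were. Of 6 blood and myeloid miRNAs 1, miR-223-5p, was lower in quercetin against control (adjusted p = 0.0188) and not without the 4 libraries that stand apart. In that comparison 8.98% of the 568 tested were lower. The lymphocyte marker miR-150-5p passed in no comparison. The part of these cells in the results below was not tested.

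miR-147-3p was lower with quercetin, with and without LPS. It was among the abundant miRNAs of the culture, at rank 38 in control cells. Its level was 523, 1237, 1016 and 405 CPM in the 4 quercetin plus LPS libraries and 806, 769, 688 and 891 CPM in the 4 quercetin libraries. In the LPS libraries it was 2647, 3004, 2660 and 2214 CPM, and in the control libraries 3186, 2786, 1809 and 2169 CPM. Every library with quercetin lay below every library without it. The order of the group means was LPS (2631 ± 324 CPM), control (2487 ± 616), quercetin plus LPS (795 ± 396) and quercetin (789 ± 84.7; SD, n = 4 each). LPS and control overlapped, as did quercetin plus LPS and quercetin.

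**Figure D1:**
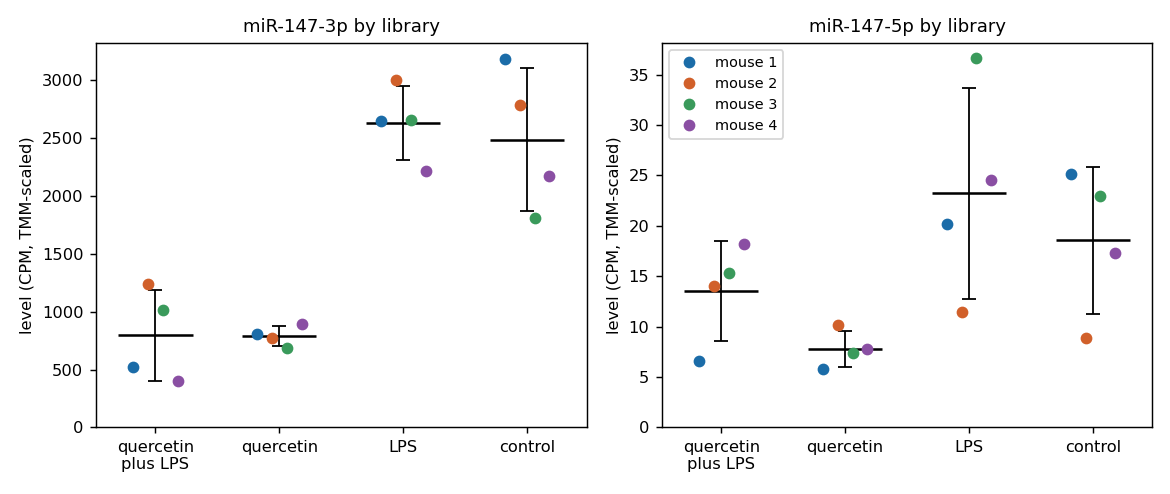
Level of miR-147-3p and miR-147-5p in CPM (TMM-scaled) in each of the 16 libraries, coloured by mouse, with the group mean and SD (n = 4). For miR-147-3p the 8 libraries with quercetin lie between 405 and 1237 CPM and the 8 without it between 1809 and 3186 CPM. For miR-147-5p the groups overlap in each comparison made. Quercetin (5.78 to 10.2 CPM) and LPS (11.5 to 36.6 CPM), which were not compared, do not overlap.

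With quercetin alone, miR-147-3p fell by 1.66 ± 0.30 on the log2 scale relative to control (SE; 95% interval -2.30 to -1.02, adjusted p = 0.00127, edgeR), and it was lower in 4 of 4 mice. Relative to LPS alone, in quercetin plus LPS it fell by 1.73 ± 0.30 (95% interval -2.37 to -1.08, adjusted p = 7.99e-04), again in 4 of 4 mice. By p-value it stood at rank 22 of 568 in the first comparison and 23 in the second. In bulk RNA, fewer cells that make miR-147 and less miR-147 per cell cannot be told apart. Without the 4 libraries that stand apart, both differences remained past the threshold (-1.85, adjusted p = 0.00158, and -1.58, adjusted p = 0.00384), as they did without quercetin plus LPS 1 in addition (-1.82, adjusted p = 2.76e-04, and -1.28, adjusted p = 0.00529).

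The 5p arm of the same hairpin was far less abundant. miR-147-5p had 6.59, 14.1, 15.4 and 18.2 CPM in quercetin plus LPS libraries and 5.78, 10.2, 7.38 and 7.80 CPM in quercetin libraries. It had 20.1, 11.5, 36.6 and 24.6 CPM in LPS libraries and 25.1, 8.83, 23.0 and 17.3 CPM in control libraries. Quercetin 2 lay above control 2, so the quercetin and control groups overlapped, and 3 of 4 mice had the lower value with quercetin. The arm fell by 1.25 ± 0.39 on the log2 scale with quercetin relative to control (SE, adjusted p = 0.0384). This call was lost when mouse was added as a block (adjusted p = 0.0526) and without the 4 libraries that stand apart (-1.14, adjusted p = 0.163). Against LPS alone, quercetin plus LPS gave a difference of -0.78 ± 0.39 and did not pass (95% interval -1.60 to 0.04, adjusted p = 0.15).

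In quercetin against control, 2 of the 6 miRNAs passed, both lower, where 8.98% of the 568 tested were lower, 6.87% higher and 15.8% passed in either direction. For quercetin plus LPS against LPS, 1 of the 6 passed, also lower, where 14.3% of all tested were lower, 8.63% higher and 22.9% passed. In quercetin against control 39 of the 568 were higher and 51 lower. Within edgeR these were 42 and 49 with RLE scaling (the kind DESeq2 uses), 48 and 29 with the upper quartile and 40 and 41 with library size alone. For quercetin plus LPS against LPS 49 were higher and 81 lower. Under the same scalings, in that order, these were 67 and 66, 71 and 54, and 75 and 50. The median of all 568 in the second comparison was -0.13 on the main scale and 0.15 with library size alone, so its differences are relative to that shift; miR-147-3p stayed lower and past the threshold under each of these scalings. Of the 6, miR-147-3p alone had groups that did not overlap in each quercetin comparison, against 21.5% of all tested miRNAs in quercetin against control and 20.2% in quercetin plus LPS against LPS. In the LPS comparisons, with 3.17% (LPS against control) and 3.7% (quercetin plus LPS against quercetin) of all tested not overlapping, the groups of each of the 6 overlapped.

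**Figure D2:**
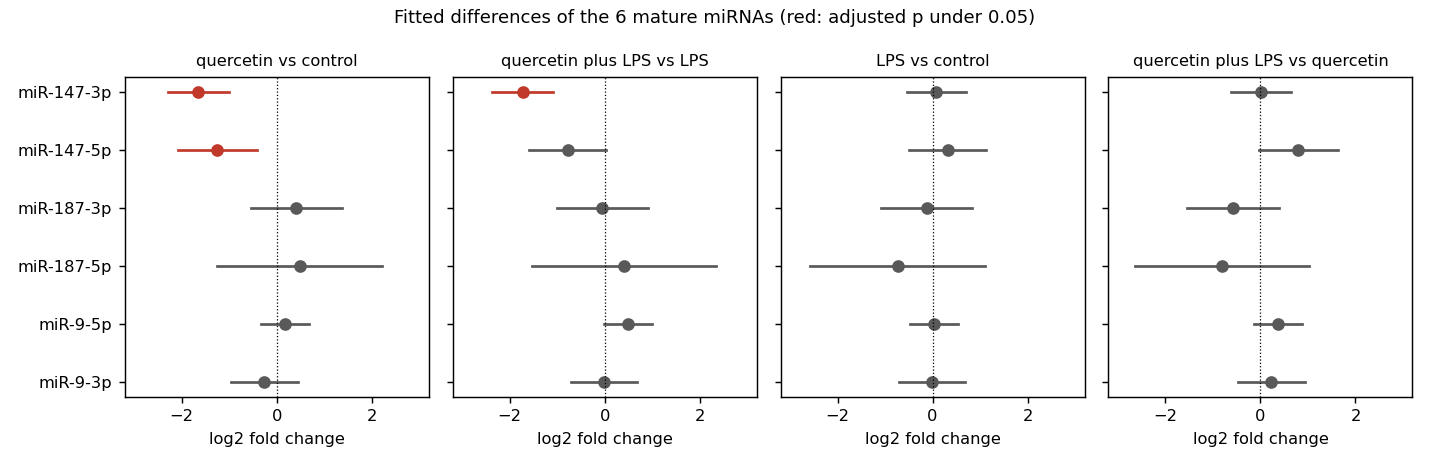
Fitted log2 fold changes of the 6 mature miRNAs in each comparison of the 4 groups, with 95% intervals; red marks an adjusted p under 0.05. miR-147-3p is red in both quercetin comparisons (-1.66 and -1.73), miR-147-5p in quercetin against control (-1.25), and no other value is red.

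LPS was not followed by a change in any of the 6 at the threshold. In LPS against control 0 of 6 passed by edgeR, and none had an unadjusted p under 0.05 by edgeR, DESeq2 or limma-voom; 0.528% of all tested miRNAs passed. The difference of miR-147-3p was 0.08 ± 0.30 (95% interval -0.54 to 0.71) and that of miR-147-5p 0.32 ± 0.38 (-0.49 to 1.13). For miR-187-3p it was -0.12 ± 0.45 (-1.08 to 0.84), and for miR-9-5p 0.03 ± 0.24 (-0.47 to 0.54).

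When quercetin plus LPS was set against quercetin, 0 of 6 passed by edgeR, by DESeq2 or by limma-voom, where 0.352% of all tested did. None had an unadjusted p under 0.05 by edgeR or limma-voom, and 1 had by DESeq2. miR-147-3p differed by 0.01 ± 0.30 (95% interval -0.61 to 0.64). miR-147-5p was higher in 4 of 4 mice, by 0.80 ± 0.39, but did not pass (-0.03 to 1.62, adjusted p = 0.664). The test of whether the LPS difference itself changed with quercetin gave 0 of 6 and 0 of all 568 past the threshold, with 0 of 6 and 26 of 568 at an unadjusted p under 0.05; DESeq2 and limma-voom also called 0. For miR-147-3p this difference of differences was -0.07 ± 0.42 (95% interval -0.95 to 0.82, adjusted p = 0.979).

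The share of miR-147 counts on the 5p arm does not depend on how libraries are scaled. It averaged 2.04% ± 1.51 with quercetin plus LPS, 0.986% ± 0.255 with quercetin, 0.898% ± 0.424 with LPS and 0.786% ± 0.383 in controls (SD, n = 4 each). The quercetin plus LPS libraries had 1.24%, 1.12%, 1.49% and 4.29%, so replicate 4 stood above the rest. The log2 ratio of 3p to 5p counts differed by -1.12 in quercetin plus LPS against LPS and was lower in 4 of 4 mice; without quercetin plus LPS 4 the difference was -0.67. This did not pass an exact two-sided permutation test (p = 0.114, adjusted p = 0.305 over 8 arm tests; the smallest p that 4 against 4 allows is 0.0286). The 3p and 5p levels correlated across the 16 libraries with r = 0.55 and within groups with r = -0.04, given as a description of libraries that share their treatments.

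**Figure D3:**
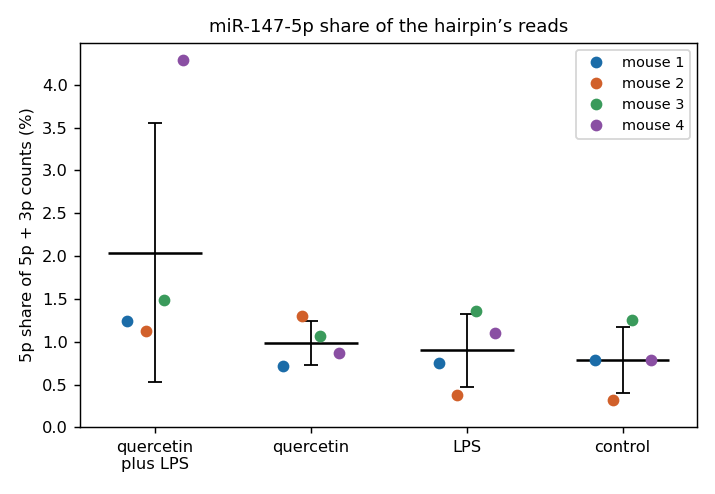
Share of miR-147 counts on the 5p arm, in percent, in each library, with the group mean and SD (n = 4). Quercetin plus LPS replicate 4 lies at 4.29%; its 3 companions lie between 1.12% and 1.49%.

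miR-187-3p, the dominant arm of miR-187, did not differ between groups at the threshold, and it varied from 2.67-fold to 4.69-fold between the lowest and highest library in every group but quercetin (1.405-fold). It had 13.1, 26.5, 24.7 and 5.65 CPM in quercetin plus LPS libraries and 27.9, 25.5, 29.8 and 21.2 CPM in quercetin libraries. In LPS libraries it had 23.6, 24.5, 14.99 and 9.19 CPM, and in control libraries 18.0, 31.6, 7.66 and 21.4 CPM. The groups overlapped in all 4 comparisons. Group means ran in the order quercetin (26.1 ± 3.71 CPM), control (19.7 ± 9.88), LPS (18.1 ± 7.32) and quercetin plus LPS (17.5 ± 9.88; SD, n = 4 each), and no neighbours in that order differed beyond their spread. The difference was 0.41 ± 0.45 in quercetin against control (SE; 95% interval -0.55 to 1.37, adjusted p = 0.601) and -0.05 ± 0.45 in quercetin plus LPS against LPS (-1.01 to 0.91, adjusted p = 0.953). The sign of the second value turned under other scalings.

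The 4 libraries that stand apart each held the lowest miR-187-3p level of their group, at 5.65 CPM in quercetin plus LPS 4, 21.2 in quercetin 4, 9.19 in LPS 4 and 7.66 in control 3. The other libraries of those groups had 13.1 to 26.5, 25.5 to 29.8, 14.99 to 24.5 and 18.0 to 31.6 CPM. Hypoxia-induced miR-210-3p, chosen after its values were seen, was also the lowest of its group in each, at 93.1, 457, 61.5 and 37.1 CPM. miR-147-3p was lowest of its group in quercetin plus LPS 4, LPS 4 and control 3 but highest in quercetin 4. miR-9-5p was highest of its group in quercetin plus LPS 4, quercetin 4 and LPS 4.

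**Figure D4:**
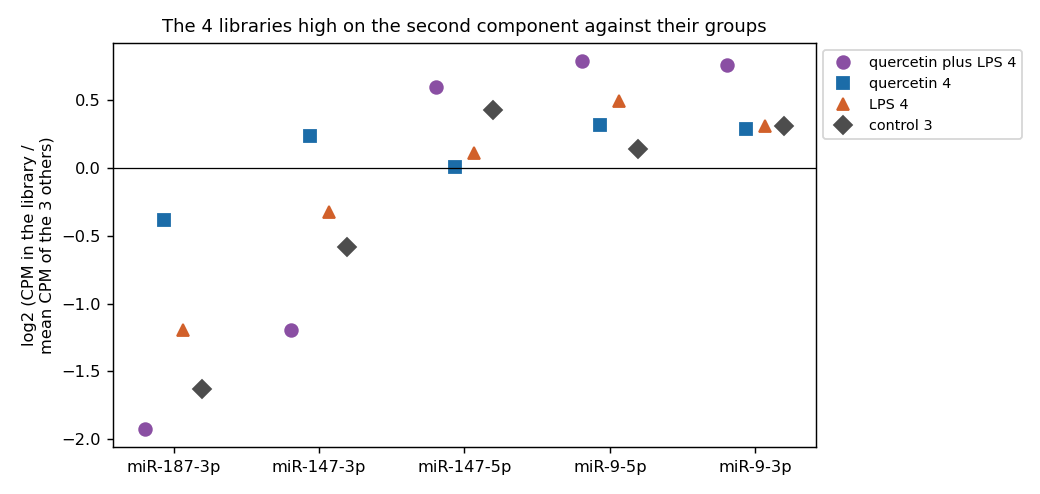
Log2 ratio of the CPM in each library that stands apart (quercetin plus LPS 4, quercetin 4, LPS 4, control 3) to the mean of the 3 others of its group, for miR-187-3p, miR-147-3p, miR-147-5p, miR-9-5p and miR-9-3p. The ratios of miR-187-3p lie between -1.92 and -0.39, while those of miR-9-5p lie between 0.14 and 0.79. miR-187-5p and miR-210-3p are not drawn. Ratios of miR-210-3p lie between -3.46 and -1.505.

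miR-187-5p, the minor arm, was near the limit of counting. Libraries held 0 to 18 counts of it, with 0 in quercetin plus LPS 4 and in control 3, where a count of 0 allows up to 3 counts. Its mean was 0.660 CPM with quercetin plus LPS, 1.17 with quercetin, 0.487 with LPS and 0.824 in controls, and it passed in no comparison (adjusted p = 0.753 in quercetin against control and 0.816 in quercetin plus LPS against LPS, edgeR). The 3p arm held 93.6% to 100% of the miR-187 counts of a library. The arm ratio was not tested, since the 5p arm averaged under 10 counts in at least one group.

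miR-9-5p had the highest mean of the 6 over the 16 libraries and held rank 50 in control cells. It had 1708, 2581, 1940 and 3592 CPM in quercetin plus LPS libraries, and 1449, 2137, 1808 and 2246 CPM in quercetin libraries. It had 1497, 1497, 1737 and 2225 CPM in LPS libraries and 1709, 1408, 1822 and 1851 CPM in control libraries. Levels in quercetin plus LPS reached higher than in the other groups, through replicates 2 and 4, but overlapped with each of them. The order of means was quercetin plus LPS (2455 ± 843 CPM), quercetin (1910 ± 359), LPS (1739 ± 343) and control (1698 ± 202; SD, n = 4 each), with overlap between all neighbours.

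miR-9-5p in quercetin plus LPS against LPS was higher in 4 of 4 mice by 0.50 ± 0.24 on the log2 scale, which did not pass (95% interval -0.01 to 1.00, adjusted p = 0.138). The value passed with scaling by library size alone (0.73, adjusted p = 0.0432) and with DESeq2 (0.62, adjusted p = 0.0447), and was 0.40 (adjusted p = 0.275) without the 4 libraries that stand apart. In quercetin against control it differed by 0.17 ± 0.24 (95% interval -0.33 to 0.67, adjusted p = 0.696).

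miR-9-3p, the minor arm of miR-9, had 6.79 to 16.5 CPM with quercetin plus LPS (median 11.3), 5.22 to 11.8 with quercetin (median 10.98), 7.93 to 13.6 with LPS (median 12.4) and 8.74 to 13.7 in controls (median 12.2). It differed by -0.26 ± 0.33 in quercetin against control and by -0.02 ± 0.33 in quercetin plus LPS against LPS (adjusted p = 0.653 and 0.977, edgeR). The 5p arm held 99.2% to 99.7% of miR-9 counts in every library. The log2 ratio of 3p to 5p counts was lower in quercetin plus LPS than in LPS by 0.56 and in 4 of 4 mice, without passing (exact permutation p = 0.0857, adjusted p = 0.305).

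**Figure D5:**
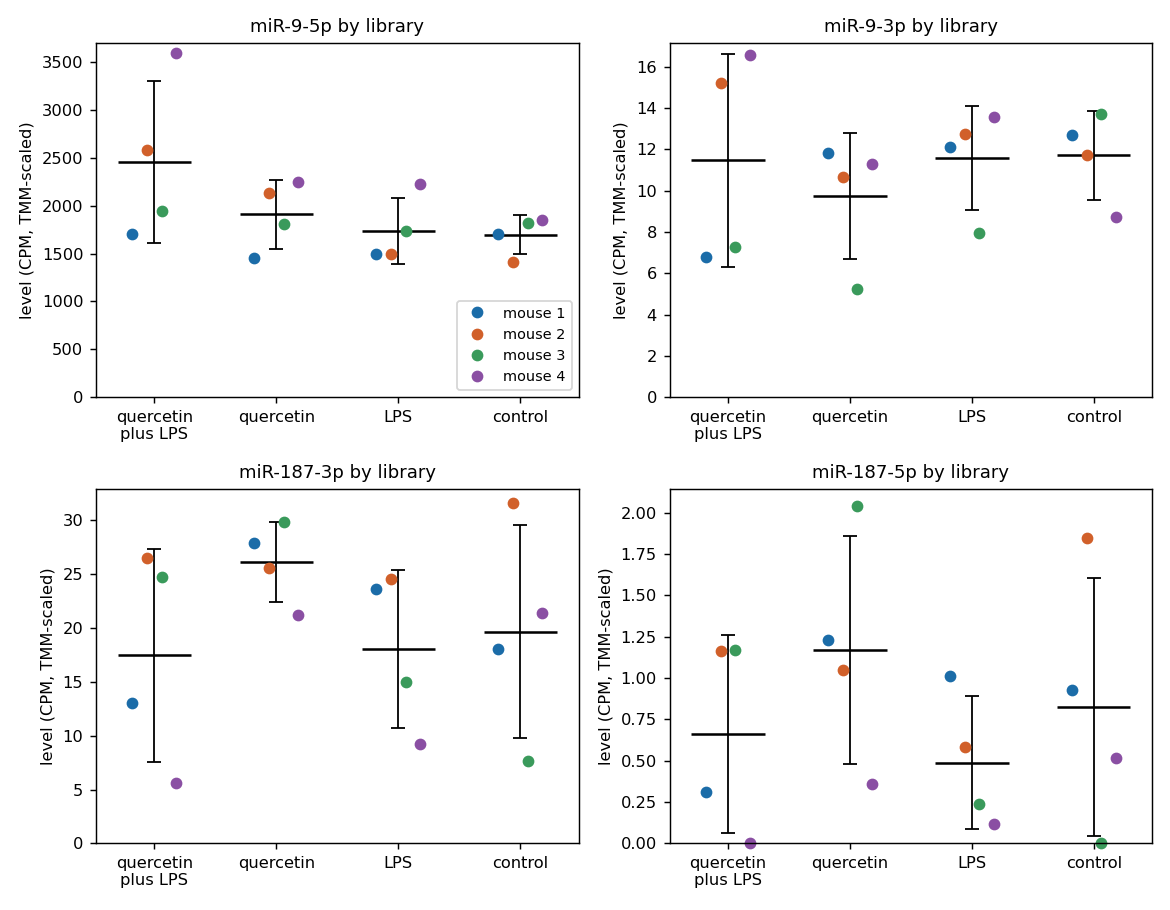
Level of miR-9-5p, miR-9-3p, miR-187-3p and miR-187-5p in CPM (TMM-scaled) in each of the 16 libraries, coloured by mouse, with the group mean and SD (n = 4). All groups overlap; miR-9-5p reaches 3592 CPM in quercetin plus LPS replicate 4, and miR-187-3p falls to 5.65 CPM in the same library.

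Neural markers were set beside miR-9 because miR-9 is abundant in neural cells. Of 9 such miRNAs 6 passed the filter, with a summed level of 512 to 740 CPM with quercetin plus LPS, 478 to 689 with quercetin, 676 to 854 with LPS and 776 to 1051 in controls. The neuronal miR-124-3p had 0 to 12 counts in a library and miR-137-3p had 0 or 1. Most of the summed level came from miR-128-3p, miR-138-5p and miR-338-3p. miR-128-3p had 382 ± 106, 385 ± 64.3, 359 ± 29.2 and 401 ± 101 CPM in quercetin plus LPS, quercetin, LPS and control (SD, n = 4 each). In quercetin plus LPS and quercetin, miR-338-3p (142 and 122 CPM) lay above miR-138-5p (49.0 and 62.4 CPM). At the threshold 1 of the 6 was higher (miR-129-5p) and 2 were lower (miR-138-5p and miR-7a-5p) in quercetin against control. In quercetin plus LPS against LPS 2 were lower (the same names), and miR-129-5p was higher in LPS against control. Of the 568 tested, 6.87% were higher and 8.98% lower in quercetin against control. In quercetin plus LPS against LPS 14.3% were lower, and in LPS against control 0.528% were higher. miR-138-5p fell by 2.33 ± 0.54 in quercetin against control (adjusted p = 0.00847) and by 2.26 ± 0.54 in quercetin plus LPS against LPS (adjusted p = 0.00798).

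By the correlation of log2 CPM over 16 libraries, the 6 miRNAs most like miR-9-5p were miR-30a-5p (r = 0.88), miR-21a-5p (0.87), miR-101b-3p (0.84), miR-1843a-5p, miR-3068-3p and miR-340-5p (0.78 each). None of them passed in any comparison. Those most like miR-147-3p, looked up after its values were seen, were miR-6539 (0.96), miR-212-3p (0.94), miR-5107-5p (0.92), miR-106a-5p (0.91), miR-146b-3p and miR-138-5p (0.90 each) over all libraries. Within groups their r was 0.80, 0.59, 0.75, 0.30, 0.28 and 0.64 in that order. miR-187-3p was most like its own 5p arm (0.93), then miR-328-3p (0.93) and miR-574-3p (0.92). The libraries of these correlations share groups and differ in depth.

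The list of other TLR-responsive miRNAs held 22 names, of which 20 passed the filter. The list holds both arms of each of its hairpins, so the 20 are not independent of each other. In quercetin against control 10 of the 20 were lower and 0 higher, with a median of -1.25 against -0.05 over all 568. Those 10 included both arms of miR-132, miR-212 and miR-222. With LPS present (quercetin plus LPS against LPS) 14 were lower and 0 higher, or 13 lower with mouse as a block, with a median of -1.42 against -0.13. Without the 4 libraries that stand apart the lower counts were 8 and 13, and 8 and 12 without quercetin plus LPS 1 in addition. Leaving out single libraries gave 7 to 11 in the first comparison and 8 to 13 in the second, which had 8 without LPS 1 and 9 without LPS 2 or without quercetin plus LPS 4. In the main fit 8.98% and 14.3% of all 568 miRNAs were lower in these comparisons. Without the 4 libraries that stand apart, 25 and 60 of 590 were lower, and 35 and 58 of 624 without quercetin plus LPS 1 in addition. In the second comparison 36 of 581 were lower without LPS 1. There, 36 of 583 were lower without LPS 2 and 43 of 589 without quercetin plus LPS 4. miR-212-3p and the miR-132 arms, made from a locus induced by CREB in neurons, were among those with the smallest p: miR-212-3p averaged 22.4 ± 4.98 CPM with quercetin plus LPS and 228 ± 74.0 CPM with LPS (log2 difference -3.35, adjusted p = 1.18e-06), and 31.1 ± 4.80 CPM with quercetin and 213 ± 61.2 CPM in controls (-2.78, adjusted p = 7.89e-06).

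For the effect of LPS, 2 of the 20 passed in LPS against control, both higher: miR-155-3p (2.00 ± 0.35, adjusted p = 0.0106) and miR-222-5p (1.15 ± 0.21, adjusted p = 0.0106). Over all tested miRNAs 0.528% were higher there. No miRNA passed in that comparison without control 1, control 4, LPS 1 or LPS 2, or without the 4 libraries that stand apart; 5 passed when quercetin plus LPS 1 was left out in addition. Between quercetin plus LPS and quercetin the same names passed, with 2.30 ± 0.35 for miR-155-3p (adjusted p = 0.00168) and 1.56 ± 0.21 for miR-222-5p (adjusted p = 6.93e-04). Of all tested miRNAs 0.352% were higher there. In that comparison 1 miRNA passed without the 4 libraries and quercetin plus LPS 1. miR-155-5p, the guide strand of the inflammatory miR-155, and miR-146a-5p, a feedback inhibitor of TLR signalling, passed in no comparison; in LPS against control they differed by 0.46 and 0.81 (adjusted p = 0.999 each).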

How the data were processed

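The deposited table gives raw read counts of mature miRNAs in 16 libraries. RNA came from a miRNeasy kit and libraries were made with TruSeq Small RNA reagents, per the labels. Per the submitters' processing notes, cutadapt and mm9 were used; versions, aligner and counting rule are not given in the sources used here. Of 1381 rows, 4 names on a pair of rows each were summed, 1 row holding text and 4 rows whose counts look exchanged between neighbours were left out, and 1372 names remained.

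Differences were tested in R 4.3.3 with edgeR 4.0.16 (TMM scaling, filterByExpr, one quasi-likelihood fit over the 16 libraries, Benjamini-Hochberg, threshold 0.05), checked on simulated data. A standard error is the log2 fold change over the square root of F, and intervals are 95%. Arm ratios had 1 added to each count and were tested by exact permutation (scipy 1.17.1). Alternatives were other scalings, no filter, DESeq2 1.42.0, limma 3.58.1 (voom), mouse as a block, the compared groups alone, leaving out each library and, added after the data were seen, leaving out the 4 libraries that stand apart, alone and with quercetin plus LPS 1.

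Equal sample numbers mark the same mouse, per the labels. Deviations from group means correlated at a mean r of 0.14 over 24 same-mouse pairs (-0.47 to 0.65) and -0.04 over 72 other pairs (-0.58 to 0.67). Control 3 correlated with its own mouse at -0.18, -0.17 and -0.47 and with mouse 4 at 0.67, 0.47 and 0.57, so its label and its correlations differ; the label was kept. Intervals and p-values measure the spread between these libraries.

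The members and lists were chosen with earlier results of these data known. The rule for named miRNAs took the 6 members, the 6 miRNAs most correlated with the most abundant of them, those sharing bases 2 to 7 of a main arm, and up to 4 TLR-responsive miRNAs per comparison with miR-155-5p, miR-155-3p and miR-146a-5p. The main arms miR-147-3p and miR-187-3p had no matched sequence, so shared bases were not searched for them. That search covered miR-9-5p and, besides the rule, miR-147-5p and miR-9-3p. Coordinates and sequences are from RefSeq and GENCODE tables of GRCm38.p6 and were not used for counting.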

Additional observations from a re-analysis of the deposited data

Results flagged for a closer look

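The share of miR-147 counts on the 5p arm in quercetin plus LPS replicate 4 was 4.29%, against 1.12% to 1.49% in the 3 other libraries of its group. This library lay far from the others: its gap to the nearest of them was 0.884 of the group's range, above Dixon's 95% critical value of 0.829. Across 36 groups of 4 values looked at, it was the 1 such case. Chance gives about 1 such case in 20 groups, so 1 in 36 is not above that rate. It is also a library that stands apart on the second component, with 405 CPM of miR-147-3p, the lowest of the 16, and 18.2 CPM of miR-147-5p.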

How the results depend on the processing

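miR-147-3p stayed lower and past the threshold in all 26 alternatives of both quercetin comparisons (-1.85 to -1.45, adjusted p 7.01e-06 to 0.00959, in quercetin against control; -1.86 to -1.28, adjusted p 9.52e-06 to 0.0105, in quercetin plus LPS against LPS). The call of miR-147-5p in quercetin against control was lost in 15 of 26 (adjusted p 0.0165 to 0.163), so the count of 2 became 1 with upper-quartile scaling, library size alone, no filter, limma-voom, the replicate block and without the 4 libraries that stand apart, alone or with quercetin plus LPS 1, and was 1 to 2 when single libraries were left out. That call did not survive without control 1, 3 or 4, without any one quercetin library, or without quercetin plus LPS 3. In quercetin plus LPS against LPS the count of 1 became 2, through miR-9-5p, with library size alone and with DESeq2, and was 1 to 2 when single libraries were left out (2 without control 1, 2 or 3, LPS 4, quercetin 1, 3 or 4, or quercetin plus LPS 1). With mouse as a block, the pairing changed no other call of the 6 miRNAs, the lower TLR-responsive miRNAs in quercetin plus LPS against LPS numbered 13 in place of 14, and miR-147-3p in quercetin plus LPS against quercetin became -0.065.

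Of 772 comparisons of one of 30 results with a setting, 639 kept direction and side of the threshold and 108 turned direction, all of them values that did not pass; the cause was not tested. In quercetin plus LPS against LPS, miR-187-3p became 0.087 (RLE), 0.21 (upper quartile), 0.297 (library size), 0.071 (no filter), 0.0867 (DESeq2), 0.053 (the compared groups alone) and 0.027 (without the 4 libraries), and -0.17 to 0.45 over single libraries left out. miR-9-3p there became 0.112, 0.25, 0.246, 0.067, 0.113 and 0.136 under the first 6 of these, and -0.024 to 0.32. In LPS against control, miR-147-3p became -0.073 (library size) and -0.0018 (compared groups alone; -0.097 to 0.19 over single libraries), and miR-9-5p -0.12 (library size), -0.038 (no filter), -0.049 (compared groups alone) and -0.084 (without the 4; -0.16 to 0.041). Leaving out single libraries gave there -0.20 to 0.083 for miR-9-3p, -0.43 to 0.14 for miR-187-3p and -0.039 to 0.49 for miR-147-5p. In quercetin plus LPS against quercetin, miR-147-3p became -0.028 (upper quartile) and -0.13 (limma-voom; -0.17 to 0.36). The difference of differences became, under RLE, library size, no filter, DESeq2 and without the 4 libraries, 0.0286, 0.14, 0.074, 0.0286 and 0.27 for miR-147-3p (-0.20 to 0.33) and 0.0285, 0.11, 0.055, 0.039 and 0.099 for miR-187-5p (-0.58 to 0.74), and -0.61 to 0.014 for miR-187-3p over single libraries; it has no fit on 2 groups. Without quercetin plus LPS 1 in addition to the 4, miR-187-3p (0.3002) and miR-9-3p (0.069) in quercetin plus LPS against LPS, miR-9-5p in LPS against control (-0.078), and miR-147-3p (0.54), miR-187-5p (0.51) and miR-187-3p (0.041) in the difference of differences also had the other sign. The arm ratio of LPS against control was -0.56 to 0.18 for miR-147, and for miR-9 0.038 without the 4 libraries (also without quercetin plus LPS 1) and -0.22 to 0.13; that of miR-9 in quercetin plus LPS against quercetin was -0.39 to 0.10. Over all miRNAs, the 90 calls in quercetin against control became 55 without quercetin 3, 54 without quercetin 4 and 45 without the 4 libraries that stand apart, and the 130 calls in quercetin plus LPS against LPS became 80 without LPS 1, 81 without LPS 2 and 70 with the compared groups alone. Counts of 0 to 18 limit what can be seen of miR-187-5p.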
